A study of Mus musculus with 6 samples.

Results

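Annexins are calcium-dependent phospholipid-binding proteins, and 8 of their genes were followed here: Anxa1, Anxa2, Anxa3, Anxa4, Anxa5, Anxa6, Anxa7 and Anxa11. They were taken by gene symbol from the 54446 genes of the count matrices, which list 12 annexin symbols in all. Expression was measured by droplet single-cell RNA sequencing of the 5' ends of transcripts in 2 libraries of GL261, a mouse glioma line grown in differentiation medium with FCS (fetal calf serum), and in 4 libraries of GL261-GSCs, cultures derived from GL261, labelled as glioblastoma stem cells and grown in defined GSC medium. Cell source, medium and growth form thus differ together between the groups and cannot be told apart. The labels give no genotype beyond the line, no treatment beyond the media, and do not say whether the numbered libraries of a group came from separate cultures, so the p-values measure the spread between these libraries, which may be technical.

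Each annexin has a core that binds negatively charged membrane lipids when calcium rises and an N-terminal tail that differs between members and binds partner proteins. Through these parts annexins link membranes to each other and to actin, take part in vesicle transport and in closing wounds of the plasma membrane, and can appear on the cell surface. In gliomas, annexin A1 and annexin A2 are counted among the genes of the mesenchymal expression state.

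The libraries held 80899005 to 121309232 UMIs (unique molecular identifiers, each standing for 1 counted transcript molecule). Of the barcodes, 4264 to 7275 per library were called cells, with 33320530 to 79472306 UMIs in them and a median of 6670 to 15478 UMIs per cell. GL261-GSCs replicate 4 was the shallowest, with 41.2% of its UMIs in called cells against 56.7% to 65.7% in the others. Any pair of libraries shared 32 to 59 called barcodes, where 26.1 to 57.9 would be shared by chance. The stem cell surface marker Prom1 was nearly absent from both groups, with 3 UMIs over the GL261 libraries and 8 over the GL261-GSCs libraries. Of the other glioma stem cell markers, Sox2 was higher in GL261-GSCs (log2 fold change 0.87), and Nes and Cd44 were lower (log2 fold changes -1.52 and -1.19).

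For 2 annexins that contrast in size of change, the sequence before the gene's start is shown, taken from RefSeq (GRCm38.p6): Anxa2, the most abundant member, and Anxa4, a member with a small change. Capitals in the Anxa2 sequence (chr9:69453433-69453619, + strand) mark a match to the AP-1 motif TGANTCA, 95 bases before the RefSeq start. The Anxa2 stretch stops 63 bases before that start because annotated exons begin there, and the Anxa4 stretch (chr6:86793585-86793834, - strand) holds none of the motifs searched. Other motifs are left in lower case.
Anxa2: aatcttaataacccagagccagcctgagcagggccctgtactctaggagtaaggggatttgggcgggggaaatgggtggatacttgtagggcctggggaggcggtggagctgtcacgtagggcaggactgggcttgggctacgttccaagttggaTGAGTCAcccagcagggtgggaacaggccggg
Anxa4: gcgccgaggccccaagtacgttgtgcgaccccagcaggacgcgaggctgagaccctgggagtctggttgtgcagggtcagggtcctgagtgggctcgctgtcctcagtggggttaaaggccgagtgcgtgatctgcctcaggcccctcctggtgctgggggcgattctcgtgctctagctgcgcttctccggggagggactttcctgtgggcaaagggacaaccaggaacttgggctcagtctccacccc
The motifs were searched on both strands in the 250 bases before each start, for 6 of the 8 members that matched the table (Anxa3 and Anxa6 did not). Of the 32851 mouse promoters of that length in the table, 6.75% held the AP-1 motif. The TEAD motif, CATTCC, was present in 12.6% of these promoters. The GC box, searched as GGGCGG, was present in 32.7% of them. The TATA box, searched as TATAAA, was present in 12.4% of them. Among the members' windows, only that of Anxa2 held the AP-1 letters. The window of Anxa5, whose group means were 10.2-fold apart, held none of the motifs searched, but an annotated exon reaches its far end. Anxa4 has another RefSeq start (86775114), not shown, whose window also held none. The Anxa1 window held the TEAD letters 236 bases before the start and a TATA box 32 bases before it, but it lies wholly within annotated transcripts of the gene. GC boxes were found in the windows of Anxa2, Anxa7 and Anxa11, and Anxa2 also held a TATA box 17 bases before the start, within the annotated exons. No match overlapped one of another motif. These are matches of letters, not measured binding sites.

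The annexins followed here were lower in GL261-GSCs than in GL261. Anxa3 had too few UMIs to be tested, and each of the 7 members that passed the filter on low counts was called lower in GL261-GSCs, at a Benjamini-Hochberg adjusted p under 0.05 in edgeR's quasi-likelihood test over 18439 genes. Among all genes tested, 14.1% were called lower and 15.8% higher. For each of the 7, both GL261 libraries lay above all GL261-GSCs libraries; a full separation of the groups in either direction was found for 56.7% of all genes tested. The median log2 fold change (GL261-GSCs over GL261) was -2.38 over the 7 members and 0.04 over all genes tested. Unless stated otherwise, levels are given as CPM, a gene's count scaled to a common library size by the TMM method. Summed over the 8 members, annexins took 0.508% and 0.563% of all UMIs of the GL261 cells and 0.0693% to 0.0822% of those of the GL261-GSCs cells.

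**Figure D1:**
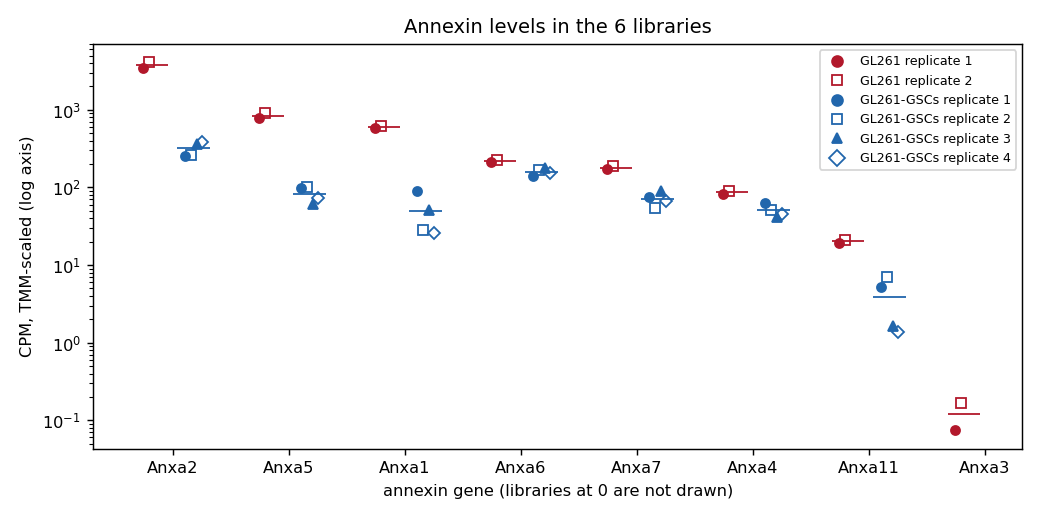
CPM (TMM-scaled library sizes, log axis) of each annexin in each library, with a line at the group mean; libraries at 0 are not drawn. The 4 GL261-GSCs libraries lie below both GL261 libraries for every member drawn in both groups. The margin is widest for Anxa2, Anxa5 and Anxa1 and narrowest for Anxa6. Anxa3 is drawn for GL261 only.

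Anxa2, on mouse chromosome 9 (69453620 to 69491795, + strand, GRCm38), encodes the annexin that binds S100A10 and acts as a plasminogen docking site and actin linker on the plasma membrane. It stood at 3501 and 4078 CPM in the GL261 libraries, whereas GL261-GSCs replicates 1 to 4 had 256, 261, 367 and 387 CPM. The GL261 libraries were high and the GL261-GSCs libraries low, with replicates 3 and 4 above replicates 1 and 2. Its mean was 3789 ± 408 CPM (SD, n = 2) in GL261 and 318 ± 69.0 CPM (SD, n = 4) in GL261-GSCs, 11.9-fold apart, with a log2 fold change of -3.57 (SE 0.22, 95% interval -4.09 to -3.06, edgeR adjusted p = 0.000134).

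Anxa1, on chromosome 19 (20373428 to 20390944, - strand), encodes a glucocorticoid-inducible protein that dampens inflammation through formyl peptide receptors. Its level reached 581 and 625 CPM in the GL261 libraries, against 91.0, 28.0, 51.0 and 25.8 CPM for replicates 1 to 4 of GL261-GSCs. All GL261-GSCs libraries were low, and they were spread more widely than for Anxa2, with replicate 1 the highest and 3.53-fold above replicate 4. The means were 603 ± 31.5 CPM (SD, n = 2) and 49.0 ± 30.3 CPM (SD, n = 4), 12.3-fold apart, and the log2 fold change was -3.62 (SE 0.50, 95% interval -4.80 to -2.44, edgeR adjusted p = 0.00256).

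Anxa5, on chromosome 3 (36448923 to 36475894, - strand), encodes the annexin whose binding to exposed phosphatidylserine is used to stain dying cells. It was measured at 777 and 908 CPM in GL261 and at 98.2, 100.5, 60.5 and 72.4 CPM in the 4 GL261-GSCs libraries. Here replicates 1 and 2 of GL261-GSCs were above replicates 3 and 4, the reverse of Anxa2, and all were far below GL261. The means of 842 ± 92.3 CPM (SD, n = 2) and 82.9 ± 19.6 CPM (SD, n = 4) were 10.2-fold apart, with a log2 fold change of -3.34 (SE 0.23, 95% interval -3.89 to -2.80, edgeR adjusted p = 0.000190).

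Anxa7 and Anxa11, both on chromosome 14 (20455260 to 20480133, - strand, and 25842156 to 25886804, + strand), encode the annexins with long tails that bind penta-EF-hand calcium sensors. Annexin A7 takes part in membrane fusion during secretion, and annexin A11 tethers RNA granules to lysosomes. Anxa7 was at 172 and 188 CPM in GL261 and at 74.5, 53.5, 88.7 and 67.0 CPM in GL261-GSCs, a smaller separation with no overlap. Its log2 fold change was -1.34 (SE 0.20, 95% interval -1.81 to -0.88, edgeR adjusted p = 0.00337), from 180 ± 11.4 (SD, n = 2) to 70.9 ± 14.7 CPM (SD, n = 4). Anxa11 was much rarer, at 19.1 and 21.2 CPM in GL261 and 5.28, 7.08, 1.65 and 1.37 CPM in GL261-GSCs. The GL261-GSCs libraries split into replicates 1 and 2 above and replicates 3 and 4 below, 5.15-fold between the highest and the lowest, and replicate 4 rested on 50 UMIs. The log2 fold change of Anxa11 was -2.38 (SE 0.64, 95% interval -3.89 to -0.87, edgeR adjusted p = 0.0309). With the replicate number as a block, which rests the comparison on replicates 1 and 2 of each group, it was -1.72. Without the block it was -2.47 without GL261 replicate 1 and -2.31 without GL261 replicate 2, and missed the threshold in each. It also missed the threshold without GL261-GSCs replicate 3 (edgeR adjusted p = 0.0573). Its antisense gene Anxa11os had at most 1 UMI per library.

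Among the 7 tested members, Anxa4 and Anxa6 had the smallest fold changes. Anxa4, on chromosome 6 (86736840 to 86793584, - strand), encodes a membrane-aggregating annexin, and stood at 81.7 and 90.7 CPM in GL261 and 63.6, 50.8, 41.4 and 46.0 CPM in GL261-GSCs. Replicate 1 of GL261-GSCs came nearest to GL261. The log2 fold change was -0.77 (SE 0.18, 95% interval -1.21 to -0.34, edgeR adjusted p = 0.0204), between means of 86.2 ± 6.38 (SD, n = 2) and 50.4 ± 9.58 CPM (SD, n = 4), and it missed the threshold without GL261 replicate 1 (adjusted p = 0.0964) or replicate 2 (0.163). Anxa6, on chromosome 11 (54979108 to 55033445, - strand), encodes an annexin with more core repeats than the others, which binds endosomal and plasma membranes. It stood at 215 and 224 CPM in GL261 and at 140, 169, 179 and 152 CPM in GL261-GSCs. As a ratio of means (1.37-fold) this was the narrowest gap among the members tested, though not in CPM. Its log2 fold change was -0.45 (SE 0.14, 95% interval -0.78 to -0.13, edgeR adjusted p = 0.0462), from 219 ± 6.80 (SD, n = 2) to 160 ± 17.2 CPM (SD, n = 4). The Anxa6 call was lost when any single library was left out (adjusted p = 0.0557 to 0.266) and with library size scaling alone (adjusted p = 0.123). The 476 abundant genes of chromosome 11 had a median log2 fold change of -0.33, against -0.08 over the abundant genes of all chromosomes (mean log2 CPM 5 or more), and its part in the Anxa6 value was not tested.

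Anxa3, on chromosome 5 (96793339 to 96845966, + strand), encodes an annexin known from neutrophil granules. It had 5 and 10 UMIs in the GL261 libraries and 0 in all 4 GL261-GSCs libraries. With 3 UMIs taken as the limit over the GL261-GSCs group, its level in GL261 was 9.96 times that limit. It was 6.29 times the limit from GL261 replicate 1 alone and 14.1 times from replicate 2 alone. Counting error in the 5 and 10 GL261 UMIs is not included, so these are not strict lower bounds. With no filter on low counts it was tested and called lower in GL261-GSCs (edgeR adjusted p = 0.0111). At these counts it was close to undetected in both groups.

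**Figure D2:**
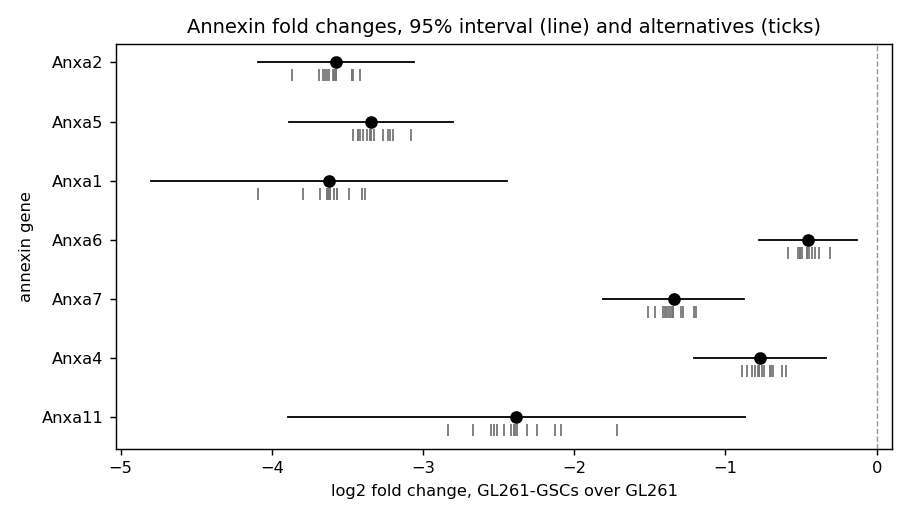
Log2 fold change of each tested annexin, GL261-GSCs over GL261 (point), with its 95% interval (line) and the values under each alternative setting (ticks below). All points and ticks lie left of 0. The points run from near -3.6 for Anxa1 and Anxa2 to -0.45 for Anxa6, and the ticks from -4.09 (Anxa1) to -0.31 (Anxa6).

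The order of the members differed between the groups. Since each UMI counts 1 end of a molecule, levels of different genes were compared without a length correction. In both GL261 libraries the order of CPM was Anxa2, Anxa5, Anxa1, Anxa6, Anxa7, Anxa4, Anxa11 and Anxa3, and no neighbours in it overlapped. In GL261-GSCs the order of the means was Anxa2, Anxa6, Anxa5, Anxa7, Anxa4, Anxa1, Anxa11 and Anxa3, where the ranges of Anxa5 and Anxa7, of Anxa7 and Anxa4, and of Anxa4 and Anxa1 overlapped. Anxa2 led in all 6 libraries. Of all annexin UMIs it made up 65.5% and 66.5% in the GL261 libraries, but 35.1%, 39.0%, 46.5% and 51.5% for replicates 1 to 4 of GL261-GSCs. Anxa6 made up 4.02% and 3.66% against 19.3%, 25.2%, 22.7% and 20.2%. Anxa6 thus took a larger share of a smaller annexin pool in every GL261-GSCs library, although its own level was not higher there.

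At the level of single cells, shares of cells with an annexin UMI were counted after each cell had been thinned to 2000 UMIs, so that depth did not differ between cells. With 2 against 4 libraries there are 15 splits, and no exact permutation test could go below p = 0.0667, so the shares are given without a test. Anxa2 was found in 96.5% and 98.7% of GL261 cells and in 37.3%, 38.8%, 48.3% and 50.6% of GL261-GSCs cells. Unthinned, the shares were 99.5% and 99.8% against 89.2%, 85.5%, 87.3% and 78.6%, so that most GL261-GSCs cells held an Anxa2 UMI at full depth. Anxa5 was found in 74.8% ± 3.40 (SD, n = 2) of thinned GL261 cells and 14.6% ± 3.07 (SD, n = 4) of GL261-GSCs cells, and Anxa1 in 61.7% ± 2.80 and 8.54% ± 5.46. For Anxa7 the shares were 27.5% ± 0.322 and 12.6% ± 1.96, for Anxa4 14.7% ± 0.440 and 9.96% ± 1.88, for Anxa6 32.5% ± 0.189 and 27.8% ± 2.18, and for Anxa11 3.78% ± 0.528 and 0.737% ± 0.482. Exact binomial (Clopper-Pearson) 95% intervals of the Anxa2 shares ran from 95.9% to 97.0% in GL261 replicate 1 and from 49.2% to 52.1% in GL261-GSCs replicate 4, and cover counting error only. After thinning, Anxa3 was seen in 1 of 4808 cells of GL261 replicate 1, in 0 of 5002 cells of GL261 replicate 2 and in 0 cells of each GL261-GSCs library. Taken as the share that 3 cells would make, a count of 0 allows up to 0.0600% in GL261 replicate 2 and 0.0412% to 0.0704% in the GL261-GSCs libraries. This limits the cells with a UMI at this depth, not the cells expressing the gene.

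**Figure D3:**
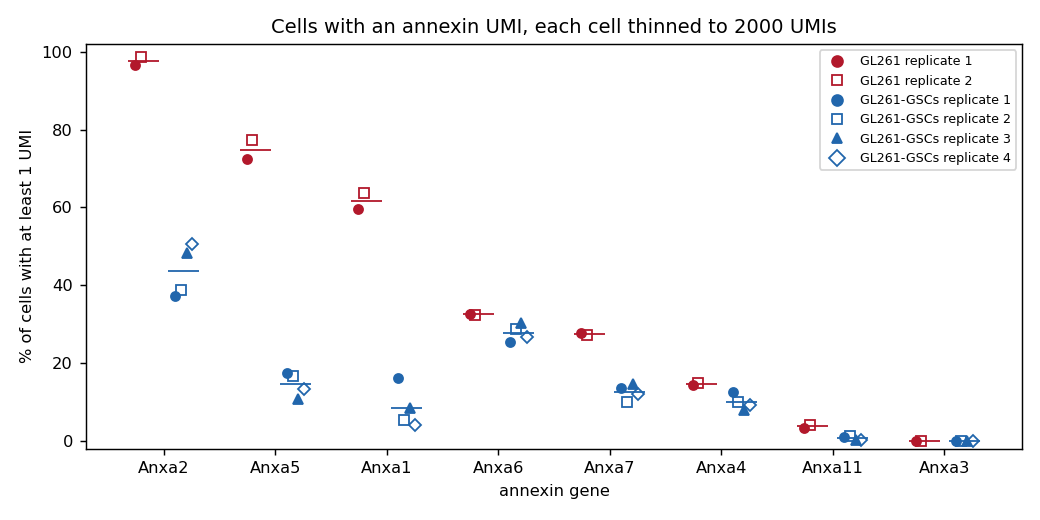
Percent of called cells with at least 1 UMI of each annexin in each library after thinning to 2000 UMIs per cell, with a line at the group mean. Nearly all GL261 cells had Anxa2, and at this depth the groups are far apart for Anxa2, Anxa5 and Anxa1 and nearer each other for Anxa6 and Anxa4.

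RNA free in the droplets can also give such UMIs. In barcodes of 100 to 1000 UMIs (median 472 to 679), too small to be called cells, Anxa2 was seen in 76.2% and 79.6% of barcodes in GL261 and in 11.4% to 20.4% in GL261-GSCs. On plain library sizes, the CPM of Anxa2 in called cells was 0.956 to 1.12 times that in these small barcodes. For Anxa1 it was 0.605 to 0.688 times and for Anxa6 1.26 to 1.47 times. Anxa1 was thus relatively more frequent outside the called cells in every library, and Anxa6 less frequent. No cell type that should lack annexins was at hand to set the background, and the part of free RNA in the shares was not tested.

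The annexins were also counted together in each cell. Of 2000 UMIs per cell, the median was 9 and 11 annexin UMIs in the GL261 libraries and 1 in each GL261-GSCs library. A median of 3 different annexins was detected per GL261 cell and 1 per GL261-GSCs cell. Cells without any annexin UMI made up 0.603% and 0.200% of GL261 cells and 26.0%, 28.3%, 24.5% and 24.9% of GL261-GSCs cells.

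Anxa1 was unevenly spread over the cells of GL261-GSCs replicate 3, where the variance of its thinned UMIs was 1.94 times the mean, and 1.79 times without the cell of most UMIs. In replicate 4 the ratio was 1.84 but rested on 1 cell of 13 UMIs, without which it was 1.12, in replicates 1 and 2 it was 1.14 and 1.20, and in the GL261 libraries it was 1.33 and 1.32. In replicate 3, 14 of 7275 cells (0.192%) held at least 4 Anxa1 UMIs each and together 11.2% of its thinned Anxa1 UMIs, whereas replicates 1, 2 and 4 had 3, 1 and 1 such cells. In GL261, where Anxa1 was higher throughout, 201 and 268 cells held as many, with 17.97% and 21.13% of the thinned Anxa1 UMIs. Poisson counts at each library's mean would put 109 and 149 cells at 4 or more in GL261, and 0.0396 in GL261-GSCs replicate 3. For GL261-GSCs replicates 1, 2 and 4 they would put 0.189, 0.00315 and 0.000882 cells there. The same cut thus means different things in the 2 groups. Cells with at least 4 Anxa1 UMIs were chosen after their values were seen and were given no test. Their CPM are of thinned UMIs, without TMM scaling. In the 14 cells Anxa7 stood at 1000 CPM (28 UMIs) against 83.9 CPM in the other cells of the library. Anxa5 stood at 357 CPM (10 UMIs) against 60.7, and Anxa2 at 857 CPM (24 UMIs) against 356. Anxa6 was at 214 CPM (6 UMIs) against 185 and Anxa4 at 71.4 CPM (2 UMIs) against 41.5. Genes outside the family were compared too. S100a6 was at 1714 CPM (48 UMIs) against 264 and S100a10 at 750 CPM (21 UMIs) against 242. Olig2 was at 321 CPM (9 UMIs) against 779, while Vim was close to the other cells, at 4143 CPM (116 UMIs) against 4533. Among genes with at least 30 UMIs in the 14 cells, Lgals3 had the largest fold after Anxa1 (log2 4.09). That filter counts UMIs in the 14 cells themselves, so genes rare in them could not enter. This rank is therefore a description of these cells only. Of the 14 cells 14.3% had an Mki67 or Top2a UMI, against 57.9% of the other cells of that library. In GL261 the corresponding shares were 42.3% against 55.5% in replicate 1 and 60.1% against 62.0% in replicate 2. GL261-GSCs replicate 1 went the other way, with 66.7% of its 3 such cells against 57.1%. In replicates 2 and 4 the share was 0% of 1 cell each, against 58.8% and 51.1%. Such shares rest on few cells of single libraries.

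The proteins that annexins work with were examined next. The counts called in these gene lists stand beside 14.1% called lower and 15.8% called higher among all genes tested. Of the 6 S100 genes listed as annexin partners, 4 were called lower in GL261-GSCs, 1 higher and 1 was not called, with a median log2 fold change of -3.14. S100a10, the partner of annexin A2, was at 1461 ± 179 CPM (SD, n = 2) in GL261 and 289 ± 43.0 CPM (SD, n = 4) in GL261-GSCs (log2 fold change -2.34, edgeR adjusted p = 0.000274). S100a11, the partner of annexin A1, went from 667 ± 59.8 to 17.6 ± 2.67 CPM (log2 fold change -5.24), and S100a6 from 3821 ± 40.2 to 248 ± 80.9 CPM (log2 fold change -3.95). S100a4 was also called lower (log2 fold change -7.57), S100b, a glial S100 gene, was called higher (log2 fold change 0.74, adjusted p = 0.0102), and S100a1 was not called (0.39, adjusted p = 0.279). The 4 lower genes thus include the known partners of annexins A1 and A2, whose own levels were also lower.

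Of the 3 penta-EF-hand partners of annexins A7 and A11, Pdcd6 (ALG-2) was called higher (105 ± 5.60 against 158 ± 13.7 CPM, log2 fold change 0.58, edgeR adjusted p = 0.0176), Sri (sorcin) was called lower (log2 fold change -0.44, adjusted p = 0.0479) and Pef1 was not called. These partners therefore did not share 1 direction. Of the genes for annexin A1 receptors, Fpr1 had 5 UMIs in GL261, Fpr2 had 1 and Fpr3 had 0, and none had a UMI in GL261-GSCs. Pla2g4a encodes a phospholipase A2, the enzyme class that annexin A1 was first described as inhibiting. It was not called (edgeR adjusted p = 0.903), at 2.10 and 4.01 CPM in GL261. GL261-GSCs replicates 1 to 4 were widely spread, at 0.0607, 6.68, 1.93 and 1.70 CPM.

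Of 13 membrane repair genes, 12 were tested, of which 7 were called lower, 1 higher and 4 were not called, with a median log2 fold change of -0.94. The lower genes were Myof (myoferlin, log2 fold change -4.56), Ahnak (an annexin A2 and S100A10 scaffold, -4.44), Cavin1 (-3.19), Capn2 (-1.49), Capn1 (-0.95) and Pdcd6ip (ALIX, -0.92), and also Cav1, which was at 148 ± 8.45 CPM (SD, n = 2) and 37.0 ± 18.6 CPM (SD, n = 4). Vps4b, an ESCRT ATPase, was called higher (0.53). Dysf (dysferlin) was at 1.67 and 1.57 CPM in GL261 and 4.99, 3.35, 47.7 and 55.5 CPM in GL261-GSCs replicates 1 to 4, higher in replicates 3 and 4, and was not called (edgeR adjusted p = 0.0653). Ahnak was at 1123 ± 55.5 CPM (SD, n = 2) and 51.7 ± 23.9 CPM (SD, n = 4).

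Of 6 genes of plasmin formation, 5 were tested, and Plaur, the urokinase receptor, was called lower (320 ± 4.15 against 46.3 ± 7.24 CPM, log2 fold change -2.79, edgeR adjusted p = 0.000120), while Plat, Plau, Plgrkt and Eno1 were not called and Plg had 0 UMIs. Of 7 genes of phosphatidylserine exposure, the lipid that annexin A5 binds, the scramblase family genes Plscr1 (-1.42) and Plscr3 (-1.43) were called lower and 5 were not called, among them Ano6 (adjusted p = 0.897) and Xkr8. Of 6 glucocorticoid response genes, a class to which Anxa1 belongs, only Dusp1 was called lower (-2.16), and 5 were not called, among them the receptor gene Nr3c1 (0.00, adjusted p = 0.989), Fkbp5 and Tsc22d3. Of the remaining annexin genes, Anxa8 was called lower on 401 UMIs in GL261 and 3 in GL261-GSCs, Anxa9 was not called (0.64, adjusted p = 0.204), and Anxa10 and Anxa13 had 0 UMIs.

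Markers of other cell types were measured in the same libraries. The 6 microglia and macrophage markers summed to 12.9 to 13.0 CPM in GL261 and 0.192 to 0.349 CPM in GL261-GSCs. Nearly all of the GL261 sum was Csf1r (12.8 CPM, against 0.227 CPM in GL261-GSCs), while C1qa had 0 UMIs, Tyrobp 1 in all and Ptprc 2 in GL261 and 4 in GL261-GSCs. The 4 endothelial markers summed to 0.895 to 1.63 and 0.364 to 0.888 CPM, with Cdh5 called lower in GL261-GSCs (49 and 1 UMIs), Pecam1 not called, and Cldn5 at 0. The 5 fibroblast and pericyte markers summed to 252 to 287 CPM in GL261 and 11.1 to 26.8 CPM in GL261-GSCs, mostly Col1a1. Col1a1 and Pdgfrb (638 and 30 UMIs) were called lower in GL261-GSCs, and Dcn (8 and 53 UMIs) was not called, while Lum (1 and 5 UMIs) and Rgs5 (0 and 21 UMIs) were not tested. Of the 4 oligodendrocyte precursor markers, Olig1, Olig2 and Pdgfra were called higher in GL261-GSCs, and Cspg4 was not called (182 ± 25.3 and 127 ± 64.9 CPM, edgeR adjusted p = 0.400), with sums of 175 to 205 CPM in GL261 and 909 to 1996 CPM in GL261-GSCs. Of the 4 astrocyte markers, Aldh1l1 (872 and 2 UMIs) and Gfap (165 and 3 UMIs) were called lower, as the annexins were, Gja1 was not called (38.9 ± 0.922 and 77.3 ± 40.4 CPM) and Aqp4 was at 0. Their sums, 46.1 to 47.8 and 43.9 to 126.8 CPM, were mostly Gja1. The sum of the 4 neuron markers (0.215 to 0.281 and 1.24 to 78.4 CPM) was carried by Slc17a7 in GL261 and by Syt1 in GL261-GSCs, with Snap25 at 0 and 7 UMIs and Rbfox3 at 0. That of the 3 epithelial markers (1.16 to 2.61 and 13.0 to 88.3 CPM) was carried by Epcam in GL261-GSCs, while Krt8 was not called (log2 fold change 0.02), and that of the 3 T cell markers (0.119 to 0.149 and 0.819 to 1.95 CPM) was carried in GL261-GSCs by Cd3g, with Cd3e at 10 and 1 UMIs. The part of these marker differences in the annexin values was not tested.

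How the annexins varied within a culture was examined by splitting each library into cells with a UMI of Mki67 or Top2a, genes of dividing cells, after thinning (51.1% to 61.9% of cells), and the other cells. With the library as block, 5 of the 7 annexins tested were called lower in the Mki67 or Top2a cells and none higher, in edgeR's quasi-likelihood test over 15295 genes, of which 22.4% were called lower and 22.5% higher. For Anxa1, Anxa2 and Anxa5 the differences were small beside those between the groups. Anxa1 had log2 ratios of -0.19 and -0.12 in the GL261 libraries, and of -0.32, -0.70, -0.83 and -0.64 for replicates 1 to 4 of GL261-GSCs, lower in all 6 libraries (fitted -0.43, SE 0.08, edgeR adjusted p = 0.00180). Anxa5 had -0.11 in both GL261 libraries and -0.35, -0.41, -0.62 and -0.76 in GL261-GSCs (fitted -0.37, SE 0.07, edgeR adjusted p = 0.00199). For Anxa1, Anxa2, Anxa4 and Anxa5 all GL261-GSCs libraries lay below both GL261 libraries, as for 10.7% of all genes tested, and for Anxa6 and Anxa11 all lay above, as for 13.2%. On thinned UMIs the Anxa11 difference between the groups turned sign, from 0.32 to -0.13. The Anxa7 libraries of the groups overlapped.

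Anxa7 (fitted log2 difference -0.30, SE 0.04), Anxa4 (-0.29, SE 0.04) and Anxa2 (-0.20, SE 0.04) were also called lower, each in all 6 libraries (edgeR adjusted p = 0.000135, 0.000115 and 0.00162). Anxa6 had ratios of -0.22 and -0.18 in GL261 and between -0.09 and 0.07 in GL261-GSCs and was not called (-0.07, 95% interval -0.15 to 0.02, edgeR adjusted p = 0.180). Anxa11 was not called either (-0.13, 95% interval -0.30 to 0.03, edgeR adjusted p = 0.165). On thinned UMIs both were called lower, Anxa6 at -0.12 and Anxa11 at -0.38, and the Anxa2 value was -0.31. The Mki67 or Top2a cells were deeper than the others in 5 libraries (GL261 replicate 1, median 16418 against 14396 UMIs) and shallower in GL261-GSCs replicate 4 (6290 against 6997 UMIs).

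**Figure D4:**
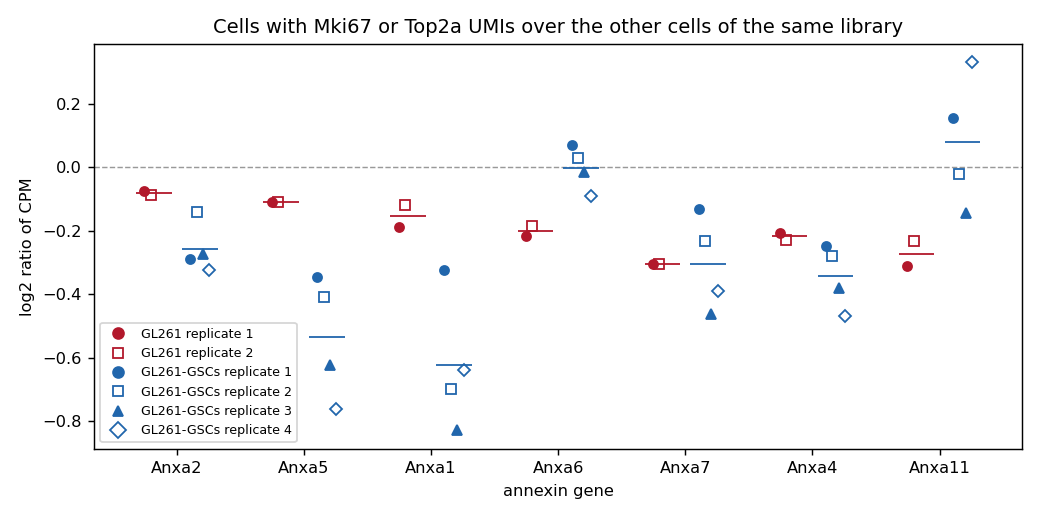
Log2 ratio of CPM in cells with Mki67 or Top2a UMIs over the other cells of the same library, for each annexin and library, with a line at the group mean. Anxa1 and Anxa5 lie lower in the 4 GL261-GSCs libraries than in the GL261 libraries, and Anxa6 and Anxa11 of GL261-GSCs lie on both sides of 0.

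Whether this contrast differs between the groups was tested as an interaction. No annexin passed in edgeR or in limma-voom, and 0.105% of all genes tested were called in edgeR. At an unadjusted p under 0.05 there were 5 of the 7 annexins in each tool, and 11.4% of all genes in edgeR. The difference of the contrast (GL261-GSCs minus GL261) was -0.46 (SE 0.11) for Anxa1 (edgeR adjusted p = 0.183) and -0.42 (SE 0.10) for Anxa5 (edgeR adjusted p = 0.179). For Anxa6 it was 0.20 (edgeR adjusted p = 0.254) and for Anxa7 0.00 (95% interval -0.19 to 0.19, edgeR adjusted p = 1). Anxa1 passed on thinned UMIs (adjusted p = 0.0447) and without GL261-GSCs replicate 1 (0.0114), and Anxa5 without GL261-GSCs replicate 4 (0.0349). Over the alternatives the adjusted p of Anxa1 ran from 0.0114 to 0.838 and that of Anxa5 from 0.0349 to 0.838.

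Across the cells of a library, co-variation was described by Pearson's r of log(1 + thinned UMIs), averaged over the libraries of a group, with no test. Values from the same cells share capture and composition, and low counts pull r towards 0. In GL261, Anxa2 went with the actin gene Actb (r = 0.44), the small heat shock gene Cryab (0.40) and the intermediate filament gene Vim (0.40), the 3 highest of 3332 genes in at least 10% of cells, whose median r was 0.01. Its r with S100a6 was 0.36, with S100a10 0.31, with S100a11 0.25 and with Anxa1 0.18. For Anxa1 the highest were Vim (0.19), Actb (0.19) and Anxa2 (0.18), and for Anxa5 Actb (0.18), Lgals1 (0.17) and Cryab (0.17). Anxa6 (Actb, Ckb and Vim), Anxa7 (Lgals3, Ckb and Vim) and Anxa4 (Vim, Actb and Anxa2) reached at most 0.09.

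In GL261-GSCs, where annexin counts were low, the highest r of Anxa2 were with Lgals1 (0.15), Vim (0.13) and Rplp0 (0.13), and its r with S100a10 was 0.09. Anxa5 (S100a6, Mt3 and Cst6), Anxa7 (S100a6, Cryab and Mt3) and Anxa6 (Ckb, Canx and Vim) reached 0.09, 0.09 and 0.05. Such weak values in sparse counts are given as a description of these 6 libraries only.

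**Figure D5:**
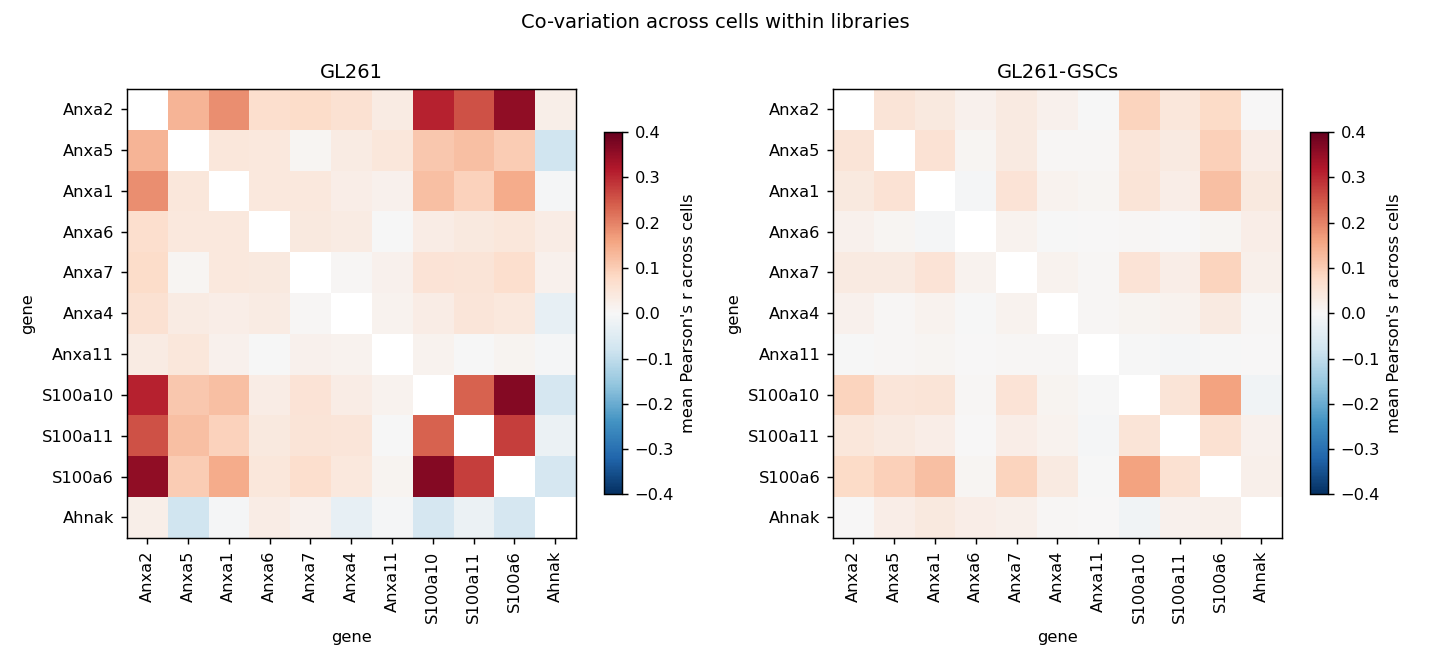
Mean Pearson's r across cells within libraries (colour) for pairs of annexins, S100 partners and Ahnak, GL261 on the left (2 libraries) and GL261-GSCs on the right (4 libraries). In GL261 the darkest squares join S100a10 with S100a6 (0.37) and Anxa2 with S100a6 (0.36) and S100a10 (0.31), while the highest GL261-GSCs value is 0.16 for S100a10 with S100a6.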

How the data were processed

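The authors deposited raw UMI counts per gene and barcode, unfiltered, written by Cell Ranger (version 4 per the file headers). The submitters' processing notes name Cell Ranger and mm10; no source used here gives the annotation release or the counting settings. Gene identifiers matched GENCODE M21 (GRCm38) without version for 99.9%, and coordinates are from it. Cells and neurospheres were dissociated with Accutase and treated with a detergent buffer, and the labels' protocols do not say which of cells or nuclei were captured.

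Barcodes were called cells when their UMIs reached 10% of the 99th percentile among the 3000 largest (2060 to 3275 UMIs), at least 500 genes and under 10% mitochondrial UMIs. No doublet caller was run. UMIs were summed per library and tested with edgeR 4.0.16 (R 4.3.3; quasi-likelihood, TMM, filterByExpr, Benjamini-Hochberg over all genes tested, 2-sided, common dispersion 0.0969). CPM are on TMM-scaled library sizes, with exceptions. Those of called cells against small barcodes use plain library sizes, and those of the Anxa1-rich cells use thinned UMIs without TMM. The SE is the absolute log2 fold change over the square root of F, so intervals are approximate. Cells were thinned to 2000 UMIs without replacement. The scripts were tested on simulated data. Alternatives used DESeq2 1.42.0 and limma 3.58.1.

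Groups come from the sample titles. The members, gene lists, tests and alternatives were chosen with earlier results of these data known. All 8 members were named, list genes could be named whether called or not, and for each member in at least 10% of thinned cells of every library of a group the 3 genes of highest r were named. The Anxa1-rich cells were chosen after their values were seen. The oligodendrocyte marker list is not reported here.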

Additional observations from a re-analysis of the deposited data

How the results depend on the processing

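The 7 tested annexins had negative log2 fold changes in all settings run for the comparison of the groups. Anxa1, Anxa2, Anxa5 and Anxa7 were called in each, Anxa11 and Anxa4 were lost without the libraries named above, and Anxa6 was also lost with no filter on low counts (adjusted p = 0.0939) and on thinned UMIs (0.0737). With library size scaling the median over all genes was 0.18 in place of 0.04 (log2), with 3491 genes called higher and 2034 lower against 2920 and 2594. The number of genes called was 5514 in all, and without a library it ran from 1817 to 6193, lowest when GL261 replicate 2 was left out and 1972 when replicate 1 was; the remaining lone GL261 library is then assumed to vary like the others. With the replicate number as a block, 6512 genes were called and all 7 annexins stayed lower. Replicates 3 and 4 exist in GL261-GSCs only, so this setting compares the groups on replicates 1 and 2 alone. Same-numbered libraries deviated from their group means with r of -0.01 and 0.07. The deviations of 2 GL261 libraries mirror each other, so these r cannot decide whether same-numbered libraries are paired.

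In the Mki67 or Top2a contrast 6877 genes were called, 648 and no annexin with no library block. For its difference between the groups 16 genes were called, 3 with Mki67 alone, 8 with library size scaling and 5 on thinned UMIs, and 0 to 116 without a library (edgeR). It was 0 without either GL261 library or GL261-GSCs replicate 2 or 3, where 936, 912, 2020 and 1395 genes had an unadjusted p under 0.05, and 116 without replicate 4; limma-voom called 12 with all libraries. Anxa6 was called lower in the contrast without GL261-GSCs replicate 1 or 2, and Anxa11 without replicate 1. Unthinned, 78.6% to 99.8% of cells hold an Anxa2 UMI, and the difference in its share (GL261-GSCs minus GL261) was -14.5 points against -53.8 thinned, and for Anxa5 -47.3 against -60.2. For the other members it was larger unthinned: Anxa1 -63.4 against -53.2, Anxa4 -20.8 against -4.72, Anxa6 -10.8 against -4.68, Anxa7 -32.7 against -14.9, Anxa11 -17.0 against -3.05 and Anxa3 -0.15 against -0.01. On thinned UMIs the Anxa11 difference between the groups in the contrast turned sign. Few UMIs limit what can be said of Anxa3, and of Anxa11 in GL261-GSCs.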
